A study of Homo sapiens with 12 samples.

Results

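The clustered protocadherins are 53 protein-coding genes whose symbols begin with PCDHA (15 genes), PCDHB (16 genes) or PCDHG (22 genes), out of 65969 gene identifiers in the count table. They were picked by symbol alone, and all 53 had enough counts in these embryoid bodies to be tested, among 24898 genes in all. The 7 pseudogene or antisense symbols with the same beginnings were left out. Embryoid bodies are aggregates in which pluripotent stem cells start to differentiate. They were grown from H1 and MEL1, established human embryonic stem cell lines that carried a doxycycline-inducible short hairpin RNA. Per the labels, aggregates began with 500 cells per microwell and every group received doxycycline at 2 µg/ml, up to harvest on day 10. The hairpins KD1, KD2 and KD3 target METTL14, a subunit of the enzyme complex that writes N6-methyladenosine on RNA, and SCR is the control hairpin. H1 had 2 libraries each of SCR, KD1, KD2 and KD3, and MEL1 had 1 SCR, 2 KD1 and 1 KD2 library. The labels do not say whether a hairpin line was 1 clone, or whether libraries of a group came from separate cultures, so the spread between them may be technical.

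Clustered protocadherins are cell-surface adhesion proteins of the cadherin superfamily. In the PCDHA and PCDHG clusters each gene is a variable first exon with its own promoter, which encodes the extracellular and membrane-spanning parts and is spliced to constant exons that encode a shared cytoplasmic tail, whereas a PCDHB gene is a single exon with no shared tail. Single neurons switch on a few of these promoters, in a choice that involves CTCF, cohesin and DNA methylation, and the resulting mix of proteins lets a neuron recognise its own branches. The C-type genes at the end of the PCDHA and PCDHG clusters (PCDHAC1, PCDHAC2, PCDHGC3, PCDHGC4 and PCDHGC5) are known for more regular expression than the alternate genes before them. These are bulk libraries, so a share is an average over many cells, and fewer cells of a type cannot be told apart from less RNA per cell.

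In GENCODE release 29 on GRCh38, all 53 genes lie on chromosome 5, plus strand. PCDHA spans 140786136 to 141012347, PCDHB 141051135 to 141249365 and PCDHG 141330571 to 141512981. The reference transcripts of PCDHA and PCDHG genes have 4 exons. The shared exons make up 2866 nt of each PCDHA transcript, a median of 54.5% of its length, and 2181 nt of each PCDHG transcript, a median of 47.3%. PCDHB transcripts have 1 exon and share none. Reads from shared exons can be given to a gene only by estimate, so the counts of PCDHA and PCDHG genes are uncertain in a way that those of PCDHB genes are not. Some variable sequence is shared too: 33.2% of the 31-nt stretches in the variable part of PCDHA6 also occur in PCDHA8, and 38.6% of those in PCDHB8 also occur in PCDHB13. No 2 members had identical counts.

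Promoter sequences are shown first because the choice among isoforms is a choice among these sequences. They are a selection of the genes that led a cluster, were called between the lines, or were called in a knockdown test. Other called genes, among them PCDHGA6, PCDHB8 and PCDHGA2, are not shown. RefSeq promoter windows on GRCh38.p14, from 250 bases before to 50 after a start site, were found for 47 of the 53 members. PCDHA3, PCDHA13, PCDHB6, PCDHB11, PCDHGA12 and PCDHGC5 had no entry. Each line gives 48 bases of the plus strand, 5′ to 3′, with the letters CGCT in capitals. CGCT is the core of the promoter element known in these genes as the conserved sequence element, but a CGCT shown here need not belong to one. Where CGCT occurred more than once, the copy whose surroundings were most like those in the rest of the cluster was taken. The mean match to the rest of the cluster was 18.1 letters for PCDHAC2, against 22.2 to 27.8 for the other PCDHA windows shown. It was 21.7 letters for PCDHGC4, against 25.5 to 29.3 for the other PCDHG windows shown.
PCDHA1 (chr5:140786078-140786125): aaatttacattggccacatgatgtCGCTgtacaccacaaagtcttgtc
PCDHA2 (chr5:140794773-140794820): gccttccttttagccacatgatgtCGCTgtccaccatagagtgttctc
PCDHA6 (chr5:140827889-140827936): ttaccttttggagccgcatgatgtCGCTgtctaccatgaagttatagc
PCDHA10 (chr5:140855833-140855880): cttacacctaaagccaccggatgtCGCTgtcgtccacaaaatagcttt
PCDHA11 (chr5:140868875-140868922): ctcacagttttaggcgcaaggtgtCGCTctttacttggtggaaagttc
PCDHAC2 (chr5:140966357-140966404): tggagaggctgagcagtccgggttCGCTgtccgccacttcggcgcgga
PCDHB2 (chr5:141094536-141094583): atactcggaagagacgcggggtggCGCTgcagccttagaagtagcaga
PCDHB5 (chr5:141135171-141135218): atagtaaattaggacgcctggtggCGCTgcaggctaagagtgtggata
PCDHB16 (chr5:141182302-141182349): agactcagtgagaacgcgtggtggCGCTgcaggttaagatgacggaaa
PCDHB10 (chr5:141192291-141192338): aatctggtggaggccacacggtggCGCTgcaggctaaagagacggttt
PCDHB15 (chr5:141245306-141245353): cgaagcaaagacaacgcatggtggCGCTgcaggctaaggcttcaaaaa
PCDHGB4 (chr5:141387609-141387656): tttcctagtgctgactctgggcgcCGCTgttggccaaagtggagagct
PCDHGB5 (chr5:141397855-141397902): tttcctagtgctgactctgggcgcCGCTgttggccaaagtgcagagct
PCDHGB6 (chr5:141407916-141407963): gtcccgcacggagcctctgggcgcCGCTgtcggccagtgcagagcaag
PCDHGA10 (chr5:141412923-141412970): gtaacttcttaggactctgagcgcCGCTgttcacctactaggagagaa
PCDHGA11 (chr5:141420964-141421011): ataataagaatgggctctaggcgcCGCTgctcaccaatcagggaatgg
PCDHGC3 (chr5:141475872-141475919): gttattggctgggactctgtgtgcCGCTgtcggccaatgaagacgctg
PCDHGC4 (chr5:141484944-141484991): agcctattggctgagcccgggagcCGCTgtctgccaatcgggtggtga

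CGCT, searched on both strands, occurred in the windows of 46 of the 47 members, all but PCDHA9. It also occurred in 70.0% of all 35116 promoter windows of that length, so by itself it sets little apart. Longer runs that contain CGCT were chosen after the sequences were seen, and were searched on both strands. ATGTCGCT occurred in 9 PCDHA members and in no PCDHB or PCDHG member, against 0.234% of all windows. GTGGCGCT occurred in 13 PCDHB members and in none of the other clusters, against 1.15% of all windows. CGCTGTT occurred in 13 PCDHG members and 1 PCDHB member, against 2.26% of all windows. Of the 48 letters shown, PCDHGB4 and PCDHGB5 shared 47. A match is a description of letters, and no binding was measured.

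The shallowest library, MEL1 SCR, held 15963241 estimated counts, and the other 11 held between 36609628 and 43508287. Levels are given as CPM, the counts of a gene relative to the scaled size of its library, and 3 counts equal 0.188 CPM in MEL1 SCR and 0.0690 to 0.0819 CPM elsewhere. METTL14 itself had 29.8 and 43.8 CPM with SCR and 8.89 to 17.7 CPM with the knockdown hairpins in H1, and 49.9 CPM against 5.94 to 8.95 CPM in MEL1. Summed over 8 neural progenitor markers, H1 libraries held 1475 to 2079 CPM and MEL1 libraries 682 to 980 CPM. Over 8 neuron markers they held 443 to 690 and 152 to 204 CPM, and over 6 pluripotency markers 1153 to 1379 and 2210.5 to 3841 CPM. Over 6 surface ectoderm markers they held 498 to 879 and 906 to 1279 CPM. Over 6 neural crest markers they held 83.1 to 167 and 139 to 501 CPM, and over 7 mesoderm markers 72.4 to 164 and 69.6 to 116 CPM. Over 6 endoderm markers they held 0.10 to 0.68 and 1.13 to 12.6 CPM; SOX17, FOXA2 and GATA4 stayed below 1 CPM in every library, while AFP reached 7.89 CPM and TTR 3.17 CPM in MEL1 KD2. The MEL1 KD2 library stood apart from the other 3 MEL1 libraries in the levels of the protocadherins and of cell type markers. Its marker sums were 501 CPM for neural crest against 139 to 238 in the others, 2210.5 for pluripotency against 3293 to 3841, 204 for neurons against 152 to 156 and 12.6 for endoderm against 1.13 to 4.91. DNMT3B had 448 CPM there against 1059 to 1304. The part of these differences in the protocadherin values was not tested.

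Each cluster was dominated by a few genes, and 1 leading gene differed between the lines. The share of a gene is its percent of the estimated counts of its cluster. In the PCDHA cluster PCDHA6 led in all 8 H1 libraries, with 24.9% ± 2.79 (SD, n = 8), and PCDHA10 led in all 4 MEL1 libraries, with 27.9% ± 7.48 (SD, n = 4), or 25.7% ± 7.38 (SD, n = 3) without MEL1 KD2. In MEL1 PCDHA6 held 4.66% ± 2.99 (SD, n = 4) of the cluster, which is a description with no test. PCDHB5 led the PCDHB cluster in all 12 libraries, with 31.7% ± 2.24 (SD, n = 8) in H1 and 40.6% ± 1.83 (SD, n = 4) in MEL1. PCDHGC3, a C-type gene, led the PCDHG cluster in all 12 libraries, with 26.9% to 37.7% in H1 and 25.4% to 35.7% in MEL1. The same genes led in every library when counts were divided by transcript length. Per length, PCDHB5 held 35.8% of its cluster in H1 and 44.7% in MEL1, and the shares of PCDHA6, PCDHA10 and PCDHGC3 moved by less than their SD.

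**Figure D1:**
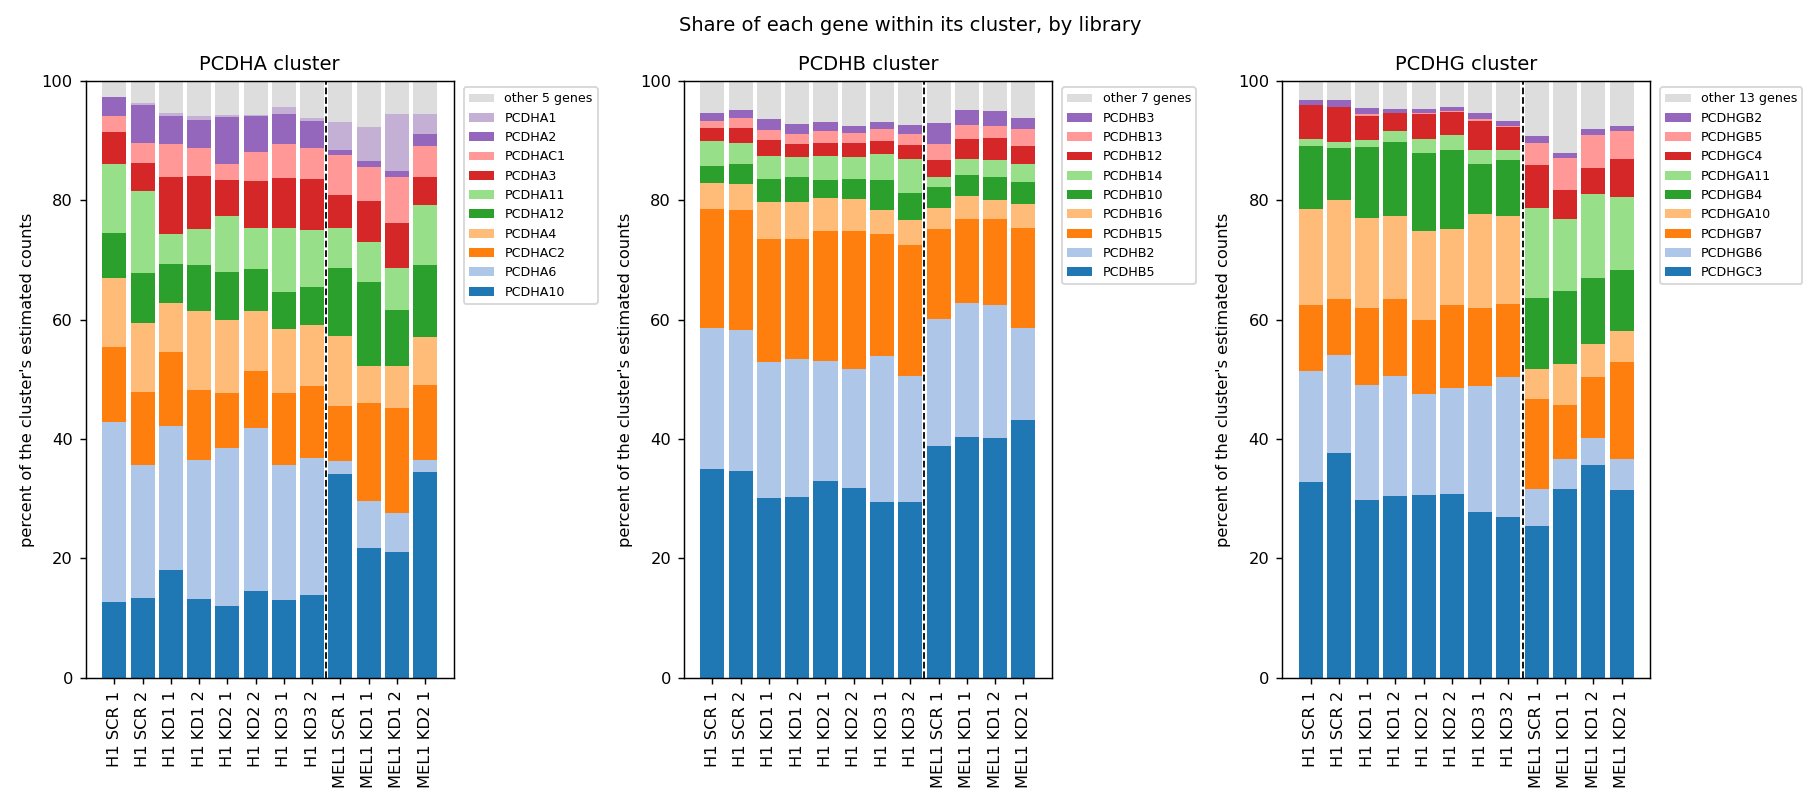
Stacked bars give the percent of each cluster's estimated counts held by each gene (y axis) in each of the 12 libraries (x axis), in 1 panel per cluster; grey is the sum of the remaining genes and the dashed line separates H1 from MEL1. PCDHA6 takes 22.2% to 30.1% of PCDHA in H1 and 1.99% to 7.82% in MEL1, and PCDHGB6 takes 16.4% to 23.5% of PCDHG in H1 and 4.57% to 6.25% in MEL1.

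The number of genes in effective use was counted by the inverse Simpson index of the shares, which equals the number of genes if all are equal. It ranged from 6.25 to 8.12 of 15 genes for PCDHA in H1 and from 5.75 to 8.31 in MEL1. For PCDHB it was 4.47 to 5.29 of 16 genes in H1 and 4.08 to 4.44 in MEL1. For PCDHG it was 4.61 to 5.75 of 22 genes in H1 and 5.54 to 7.25 in MEL1. The lines overlapped for PCDHA and PCDHG and did not overlap for PCDHB. With SCR the PCDHB values were close, at 4.47 and 4.50 in H1 and 4.44 in MEL1. With knockdown they were 4.90 to 5.29 in H1 and 4.08 to 4.20 in MEL1, and only H1 had KD3. At a mean of at least 1 CPM, 34 members were detected in both lines and 9 in neither. PCDHA2, PCDHB4 and PCDHB6 reached that level in H1 only, and PCDHA1, PCDHA9, PCDHB7, PCDHGA2, PCDHGA6, PCDHGB5 and PCDHGA12 in MEL1 only. Without MEL1 KD2, 33 members were detected in both lines and 10 in neither, since PCDHGC5 then reached that level in H1 only and PCDHGA12 in neither line. Across genes, the mean levels per kilobase of transcript in H1 and MEL1 had a Spearman correlation of 0.72 for PCDHA (15 genes), 0.89 for PCDHB (16 genes) and 0.81 for PCDHG (22 genes). These are descriptions over genes of the same 12 libraries and not over replicates.

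**Figure D2:**
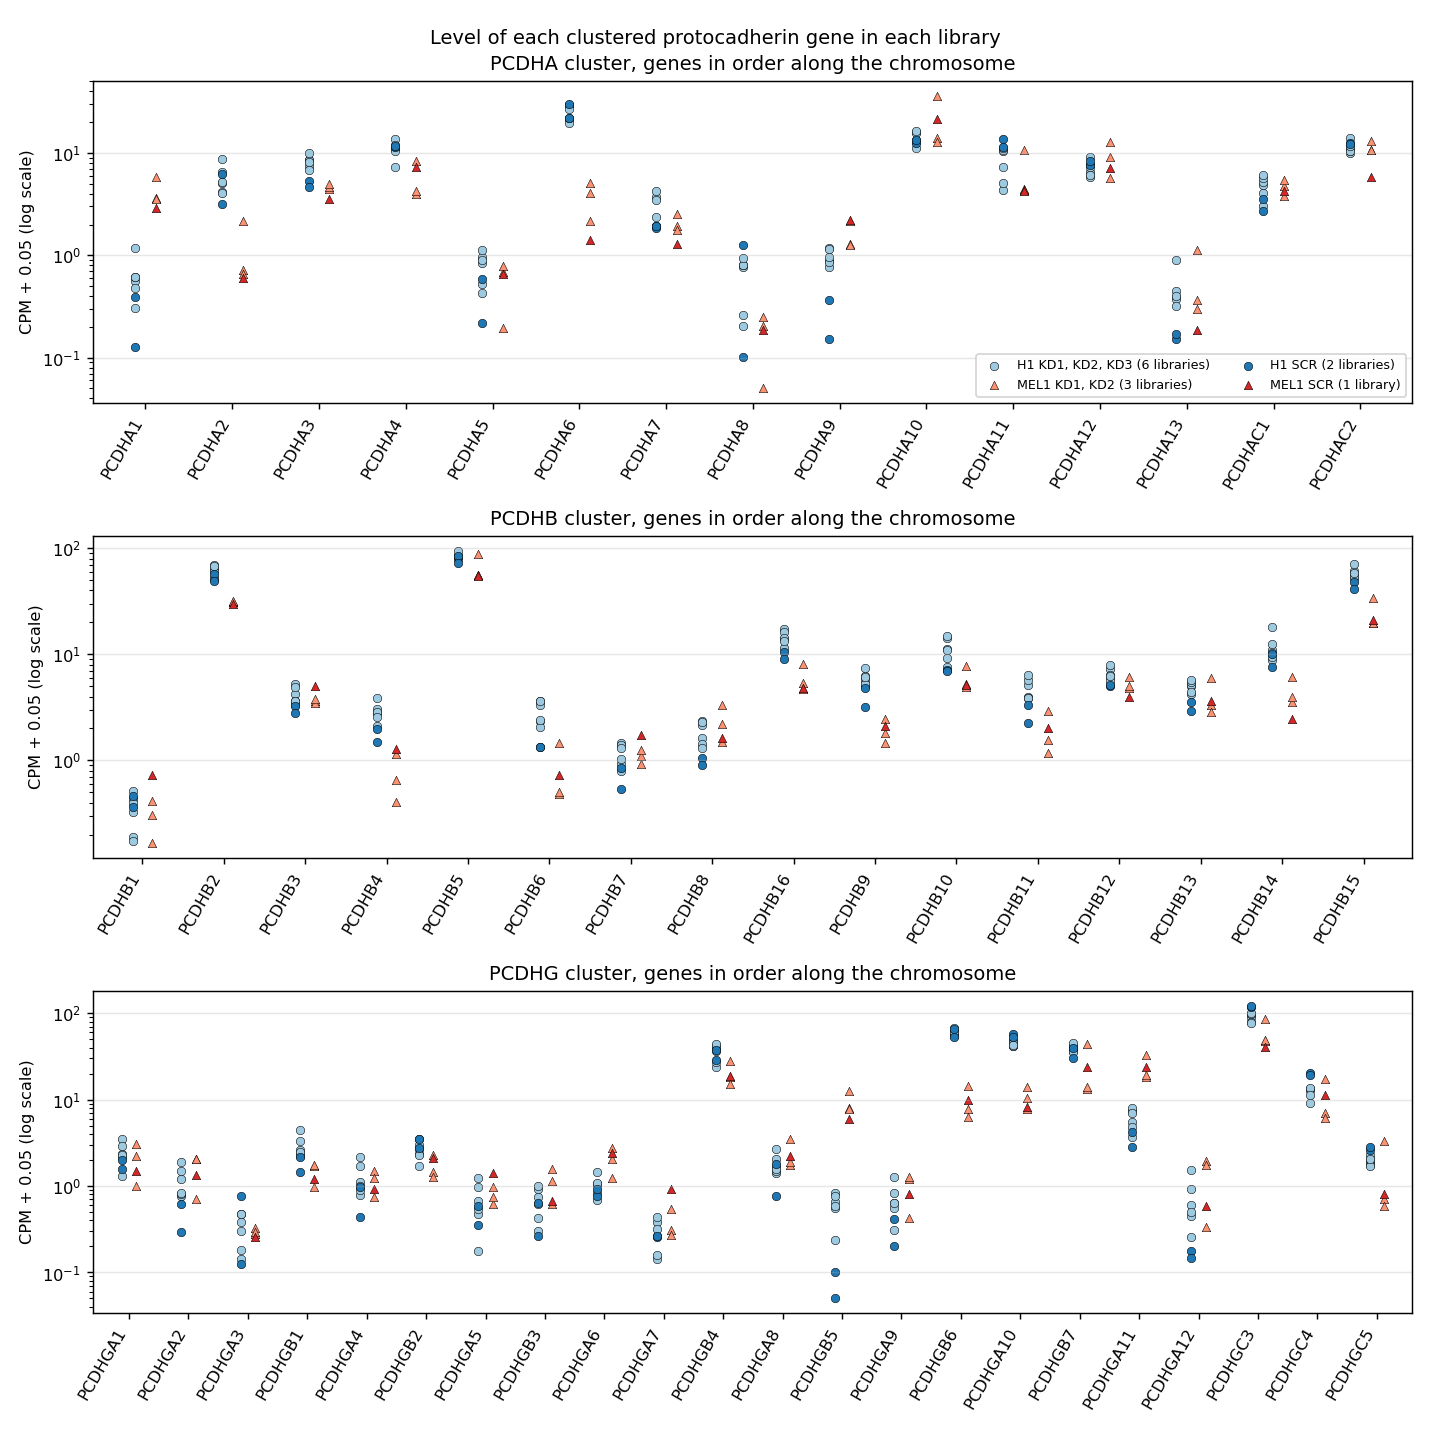
Each point is the level of a gene in 1 library, as CPM + 0.05 on a log axis, with genes of each cluster in their order along the chromosome; circles are H1 libraries, triangles MEL1 libraries, and dark symbols SCR. PCDHA6, PCDHGB6 and PCDHGA10 are higher in every H1 library than in every MEL1 library, and PCDHA1, PCDHGA11 and PCDHGB5 are the reverse.

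The distance between 2 libraries was taken as the percent of a cluster's counts that would have to move to other genes for their shares to be equal. Libraries of 1 group differed by 3.74% to 9.19% for PCDHA, 1.78% to 4.20% for PCDHB and 3.24% to 8.25% for PCDHG (5 pairs). H1 SCR and H1 knockdown libraries differed by 8.22% to 17.1%, 5.40% to 8.52% and 5.68% to 15.2% (12 pairs). H1 libraries of different knockdown hairpins differed by 6.24% to 17.1%, 4.83% to 7.39% and 4.36% to 10.3% (12 pairs). In each cluster this range overlapped the range between SCR and knockdown. The medians between hairpins, 9.87%, 5.38% and 7.29%, were below those between SCR and knockdown. Between H1 and MEL1 libraries the distance had a median of 33.3% and a maximum of 38.3% for PCDHA, and ranged from 9.77% to 17.6% for PCDHB and from 23.4% to 34.3% for PCDHG (32 pairs). In every cluster each of the 32 distances between lines was above each of the 34 distances within a line, which reached 22.4%, 9.13% and 15.2%. Pairs share libraries, so no test was made.

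**Figure D3:**
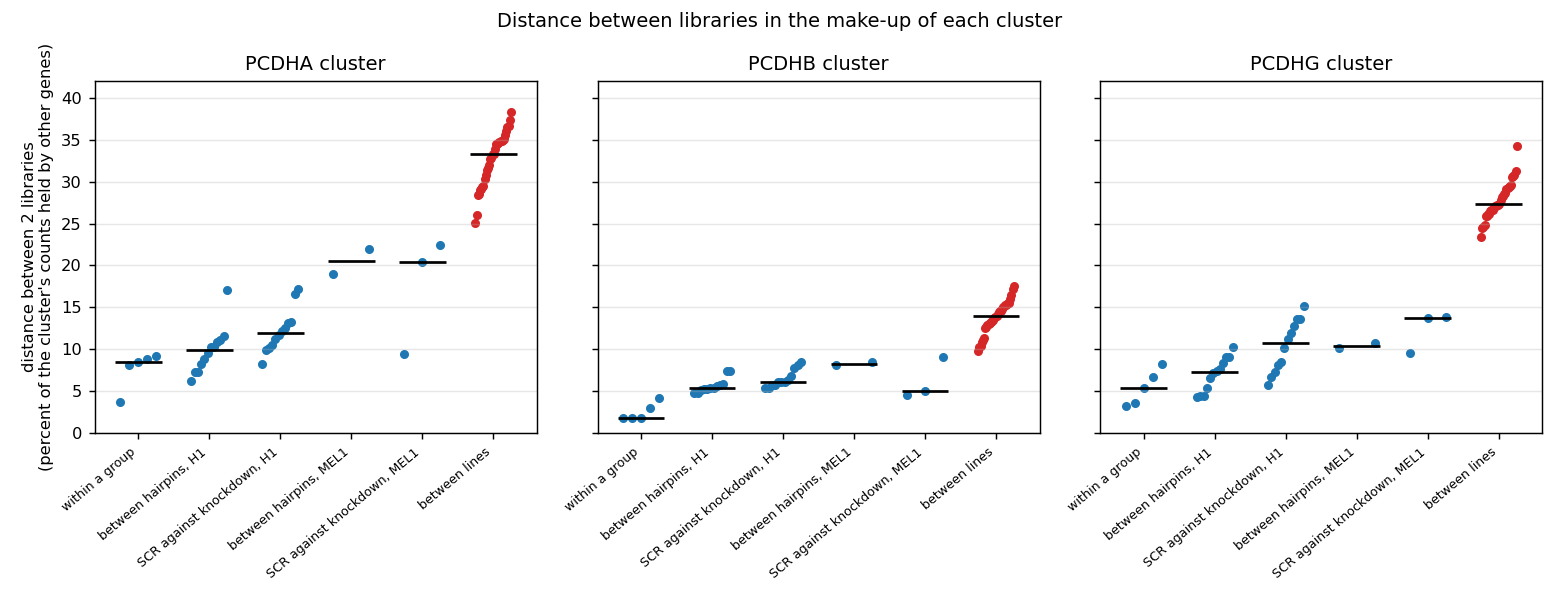
Points are pairs of libraries, and the y axis gives the percent of the cluster's counts held by other genes in one than in the other; black lines are medians and red marks pairs of an H1 with a MEL1 library. The medians between lines are 33.3% (PCDHA), 13.9% (PCDHB) and 27.3% (PCDHG), and those between H1 SCR and H1 knockdown are below these in each panel, at 6.08% for PCDHB and 10.7% for PCDHG.

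The lines were compared at matched hairpins, KD1 and KD2, with no library shared. Of the 53 members, 23 were called (edgeR quasi-likelihood test, Benjamini-Hochberg adjusted p under 0.05 over all genes), 5 higher and 18 lower in MEL1. That is 43.4% of the members, beside 44% of all genes tested (22% higher and 21.9% lower), so the count of calls is near the background. All 9 called PCDHB genes were lower in MEL1, while PCDHA had 2 higher and 4 lower and PCDHG 3 higher and 5 lower. The median log2 fold change of MEL1 against H1 was -0.20 over the members and -0.74 over PCDHB, beside -0.05 over all genes.

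The genes lower in MEL1 included the H1 leaders among the alternate isoforms. PCDHA6 had 19.6, 24.4 and 29.7 CPM as the lowest, median and highest of the 8 H1 libraries, and 1.36 CPM in MEL1 SCR, 5.04 and 3.99 in MEL1 KD1 and 2.09 in MEL1 KD2. The lines did not overlap, and the log2 fold change was -2.99 (SE 0.17, adjusted p 2.08e-07, edgeR). PCDHGB6 had 53.3, 59.9 and 68.1 CPM in H1, and 9.88, 7.65, 6.31 and 14.1 CPM in the MEL1 SCR, KD1, KD1 and KD2 libraries. Its log2 fold change was -2.56 (SE 0.13, adjusted p 8.42e-08, edgeR), again without overlap. PCDHGA10, its neighbour on the chromosome, had 41.5, 46.3 and 57.1 CPM in H1 and 8.11, 10.4, 7.72 and 14.1 CPM in MEL1, in the same order. Its log2 fold change was -1.99 (SE 0.13, adjusted p 6.18e-07, edgeR). PCDHA2 had 3.10, 5.08 and 8.77 CPM in H1 and 0.545, 0.665, 0.603 and 2.14 CPM in MEL1 (log2 fold change -2.25, SE 0.28, adjusted p 6.83e-05, edgeR).

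A small set of alternate isoforms went the other way. PCDHGB5 had 0, 0.529 and 0.784 CPM as the lowest, median and highest of the H1 libraries, and 5.93 CPM in MEL1 SCR, 8.06 and 7.80 in MEL1 KD1 and 12.6 in MEL1 KD2. Its log2 fold change was 4.26 (SE 0.39, adjusted p 1.05e-05, edgeR). PCDHGB4, which shares 47 of the 48 letters shown around CGCT with PCDHGB5, was instead higher in H1, with 23.5, 37.3 and 43.9 CPM there and 18.7, 18.2, 15.2 and 27.6 CPM in MEL1 (log2 fold change -0.90, SE 0.13, adjusted p 0.000171, edgeR). Of the 31-nt stretches in the variable part of PCDHGB4, 24.5% also occur in PCDHGB5, besides the shared exons. How far the division of reads between these 2 genes moves their values was not tested. PCDHA1, at the start of its cluster, had 0.0769, 0.467 and 1.13 CPM in H1 and 2.86, 3.61, 5.71 and 3.49 CPM in MEL1 (log2 fold change 3.23, SE 0.40, adjusted p 7.26e-05, edgeR). PCDHGA11 had 2.80, 5.16 and 7.89 CPM in H1 and 24.0, 18.1, 19.2 and 32.8 CPM in MEL1 (log2 fold change 2.07, SE 0.19, adjusted p 8.50e-06, edgeR). PCDHGA6 was called higher, at 1.23 on the log2 scale (adjusted p 0.00888 by edgeR, SE 0.32), but its libraries overlapped between the lines and KD2 by itself gave 0.98 (adjusted p 0.183).

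Over all 12 libraries, 14 members did not overlap between the lines, 4 higher in MEL1 and 10 higher in H1. That is 26.4% of the members, beside 25.3% of all genes tested (12.3% higher and 13% lower in MEL1). Without MEL1 KD2, 24 members did not overlap, 4 higher in MEL1 and 20 higher in H1 (45.3%, beside 32.8% of all genes, 15.6% higher and 17.2% lower in MEL1). Over all libraries the non-overlapping members by cluster were 4 of 15 for PCDHA, 6 of 16 for PCDHB and 4 of 22 for PCDHG, and none of the 6 in PCDHB was higher in MEL1. The most abundant of those 6 were PCDHB2, with 59.0 ± 7.84 CPM in H1 (SD, n = 8) and 30.8 ± 0.742 CPM in MEL1 (SD, n = 4), and PCDHB15, with 55.6 ± 8.77 and 23.6 ± 6.93 CPM, the latter 20.1 ± 0.798 CPM (SD, n = 3) without MEL1 KD2. Their log2 fold changes were -0.86 (SE 0.09, adjusted p 2.53e-05) and -1.13 (SE 0.11, adjusted p 1.18e-05) by edgeR. PCDHB5, which led the cluster in both lines, was not called, at -0.24 (SE 0.09, adjusted p 0.0539, edgeR). It had 71.8 to 94.9 CPM in H1, 54.3 CPM in MEL1 SCR, 56.2 and 55.3 in MEL1 KD1 and 88.0 in MEL1 KD2. Without MEL1 KD2 its lines did not overlap.

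**Figure D4:**
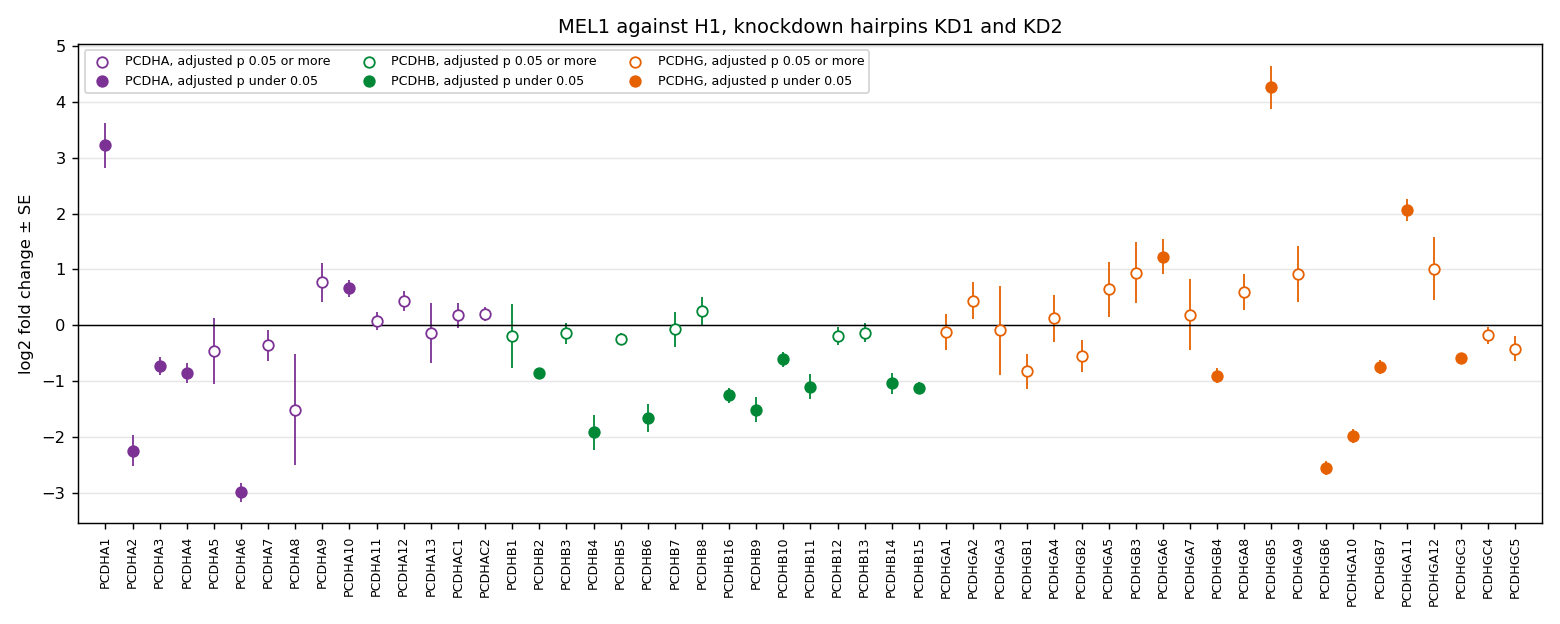
Log2 fold change of MEL1 against H1 at hairpins KD1 and KD2 for the 53 members in chromosomal order (y axis), with SE bars; filled points passed an adjusted p of 0.05. The filled PCDHB points lie below 0, and PCDHGB5 (4.26), PCDHA1 (3.23) and PCDHGA11 (2.07) are the highest called.

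KD1 by itself called 27 members (50.9%, beside 40.4% of all genes) and KD2 by itself, with its single MEL1 library, 13 (24.5%, beside 20.6% of all genes). PCDHA10, called higher in MEL1 at 0.66 (SE 0.15, adjusted p 0.00421, edgeR), differed by 1.32 (SE 0.22) with KD2 and 0.71 (SE 0.24) with SCR, but by -0.01 (SE 0.19) with KD1. PCDHGB7 was 0.75 lower on the log2 scale in MEL1 over both hairpins, as a difference of -1.55 (SE 0.15) with KD1 and of 0.04 (SE 0.18) with KD2. All 8 neural progenitor and all 8 neuron markers were called lower and all 6 pluripotency markers higher in MEL1. Of the other markers tested, 5 of 6 for neural crest, 4 of 5 for endoderm, 3 of 7 for mesoderm and 3 of 4 for surface ectoderm were called, all higher in MEL1. Of 21 genes known to act on protocadherin promoters, 9 were called, a share near the 44% of all genes tested. CTCF and DNMT3B were higher and NIPBL, MAU2, DNMT3A, TET1, TET2, SETDB1 and WIZ lower. Of 13 genes known to act downstream of protocadherins, 10 were called, 4 higher and 6 lower. The part of these differences in the protocadherin differences was not tested. Line and state of differentiation cannot be told apart here.

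In the mean of the METTL14 hairpins in H1, PCDHB6, PCDHB10 and PCDHB16 were called higher and the C-type genes PCDHGC3 and PCDHGC4 lower. None of these was called with KD2 by itself, and the calls depend on single libraries, as given further on. Against H1 SCR, the mean of the hairpins KD1, KD2 and KD3 called 9 of 53 members, 6 higher and 3 lower. That is 17.0% of the members, beside 7.16% of all genes tested (2.23% higher and 4.93% lower). The log2 fold change was positive for 40 members, and its median was 0.42, beside 0.01 over all genes. For PCDHB it was positive for 15 of 16 genes with a median of 0.57, for PCDHG positive for 16 of 22 with a median of 0.34, and for PCDHA positive for 9 of 15 with a median of 0.21.

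In the PCDHB cluster, where counts do not depend on shared exons, PCDHB6, PCDHB10 and PCDHB16 were called. Some similar sequence remains there, and 26.0% of the 31-nt stretches in the variable part of PCDHB10 also occur in PCDHB9. PCDHB6 was at 1.28 CPM in both H1 SCR libraries and had 2.02, 2.80 and 3.62 CPM as the lowest, median and highest of the 6 knockdown libraries. Its log2 fold change was 1.12 (SE 0.26, adjusted p 0.0276, edgeR). PCDHB10 had 7.07 and 6.86 CPM with SCR, and 11.2 and 10.8 with KD1, 7.49 and 9.11 with KD2 and 14.3 and 14.8 with KD3 (log2 fold change 0.66, SE 0.14, adjusted p 0.0228, edgeR). PCDHB16 had 10.5 and 9.02 CPM with SCR, and 17.2 and 16.2 with KD1, 13.9 and 14.1 with KD2 and 11.4 and 13.2 with KD3 (log2 fold change 0.54, SE 0.14, adjusted p 0.0412, edgeR). For 11 of the 16 PCDHB genes all 6 knockdown libraries lay above both SCR libraries, and for none below. Over all members 18 were higher without overlap and 5 lower, 43.4% in all, beside 20.3% of all genes tested (8.61% higher and 11.7% lower). The 2 genes with the most counts in the cluster were not called: the log2 fold changes were 0.12 for PCDHB5 (SE 0.09, adjusted p 0.487) and 0.19 for PCDHB2 (SE 0.09, adjusted p 0.256) in the edgeR fit.

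Counts in the PCDHB cluster were spread over more genes in the H1 knockdown libraries. The effective number was 4.47 and 4.50 in the H1 SCR libraries and 4.90 to 5.29 in the knockdown libraries, and the cluster total was 241 and 207 CPM against 252 to 321 CPM. The share of PCDHB5 was 34.9% and 34.7% with SCR and 29.5% to 32.9% with knockdown. In MEL1 the effective number was 4.44 with SCR and 4.08 to 4.20 with knockdown, the opposite order, with 1 SCR library.

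Of the 3 C-type genes of the PCDHG cluster, 2 were called lower in H1. PCDHGC3, the member with the most counts in H1, had 117 and 122 CPM with SCR, and 95.6 and 90.9 with KD1, 98.0 and 102 with KD2 and 78.6 and 78.0 with KD3. All 6 knockdown libraries were below both SCR libraries (log2 fold change -0.41, SE 0.08, adjusted p 0.0152, edgeR). PCDHGC4, known in mice for the survival of interneurons, had 20.3 and 19.5 CPM with SCR and 9.02, 13.1 and 13.8 CPM as the lowest, median and highest with knockdown (log2 fold change -0.70, SE 0.15, adjusted p 0.0230, edgeR). PCDHGC5 had 2.56 and 2.78 CPM in the SCR libraries, and its knockdown libraries lay between 1.67 and 2.25 CPM, which did not pass the test (log2 fold change -0.50, SE 0.22, adjusted p 0.197, edgeR). The C-type share of PCDHG was 39.2% and 44.5% with SCR and 31.5% to 35.2% with knockdown. The PCDHA C-type genes were not called: the log2 fold changes were 0.61 for PCDHAC1 (SE 0.24, adjusted p 0.156) and -0.15 for PCDHAC2 (SE 0.13, adjusted p 0.514) by edgeR.

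Among alternate isoforms of the clusters with shared exons, PCDHA3 was higher with knockdown. It had 5.28 and 4.62 CPM with SCR and 6.80, 8.32 and 9.99 CPM as the lowest, median and highest with knockdown (log2 fold change 0.73, SE 0.17, adjusted p 0.0316, edgeR). PCDHA11 was lower, as described by hairpin further on. PCDHA9 and PCDHGB5 were called higher from very few counts. PCDHA9 had 0.102 and 0.314 CPM in the SCR libraries, and its knockdown libraries lay between 0.715 and 1.12 CPM (log2 fold change 2.11, SE 0.45, adjusted p 0.0224, edgeR), on 17 counts in the SCR libraries. PCDHGB5 had 2 counts in one H1 SCR library and 0 in the other, against 138 in the 6 knockdown libraries, a ratio of 22.2 per scaled library with an exact 95% interval of 6.03 to 185 that covers counting error only (adjusted p 0.0165, edgeR). At 0.187 to 0.784 CPM it stayed below its 5.93 CPM in the MEL1 SCR library in every H1 library.

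**Figure D5:**
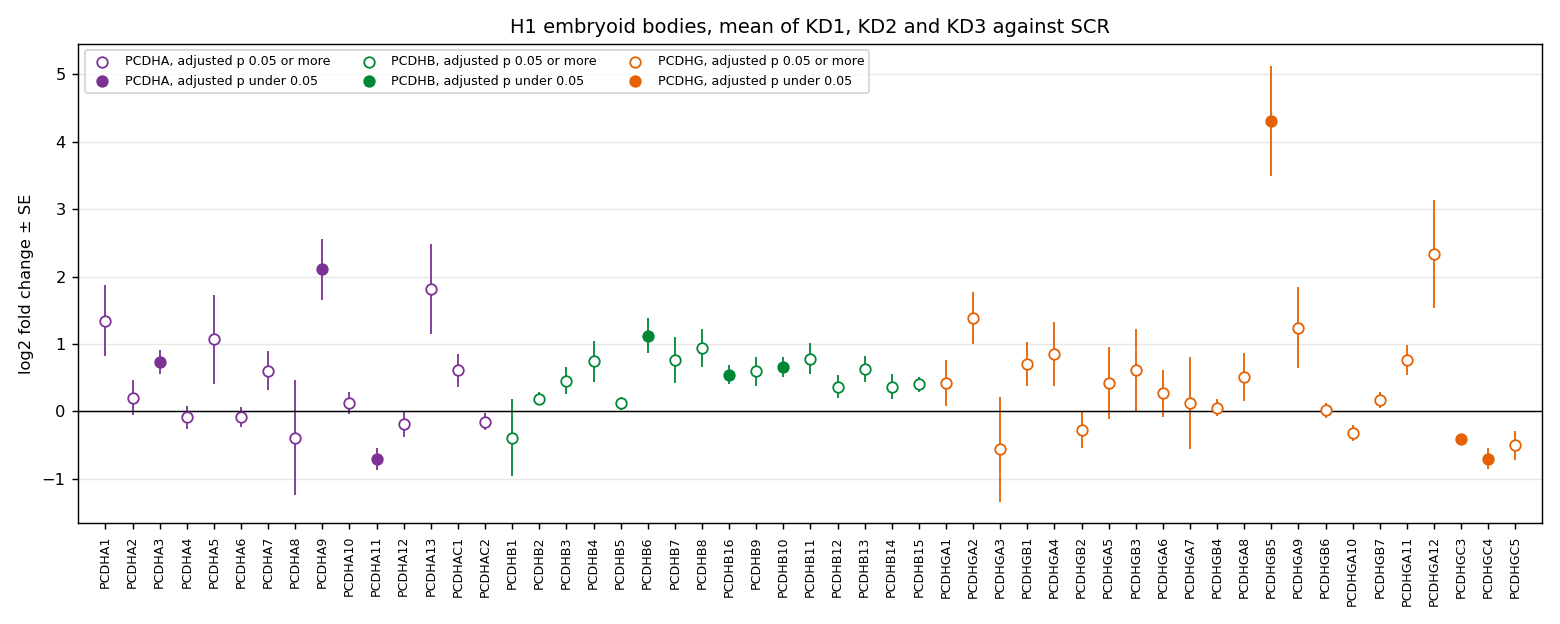
Log2 fold change of the mean of H1 KD1, KD2 and KD3 against H1 SCR for the 53 members in chromosomal order (y axis), with SE bars; filled points passed an adjusted p of 0.05. Of the PCDHB points 15 of 16 lie above 0, PCDHGC3 (-0.41) and PCDHGC4 (-0.70) are below 0, and the value of PCDHGB5 rests on 2 counts in the SCR libraries and is no bound.

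These calls depend on single libraries: without the first H1 SCR library 2 of the 53 members were called and without the second 0, without the first and the second KD1 library 4 and 3, without the second KD2 library 3 and without the second KD3 library 5. DESeq2 called 14 members, and 15 passed edgeR once trends with GC content and gene length were taken out of every library. No named member changed direction, in fits that reuse most of the same libraries. Of the other genes examined, 4 of 8 neural progenitor markers were called in the H1 average (SOX2, PAX6 and LHX2 higher, FABP7 lower), 1 of 8 neuron markers (STMN2 lower), 3 of 6 pluripotency markers (POU5F1, NANOG and ZFP42 lower) and 4 of 6 neural crest markers (FOXD3, TFAP2B, PAX3 and SNAI2 lower). Of 7 mesoderm markers KDR was called, lower in that average, with each hairpin and over both lines. KD1 also called MEOX1 lower and TBX6 higher. Summed in H1, the mesoderm markers fell from 162 and 164 CPM with SCR to a range of 72.4 to 98.7 CPM with knockdown. The part of these marker differences in the protocadherin differences was not tested. Of the 21 regulators of protocadherin promoters only DNMT3B, a DNA methyltransferase, was called, at a log2 fold change of -0.38 (adjusted p 0.0491 by edgeR, SE 0.10), and none of 13 genes known to act downstream of protocadherins. Of 11 nonclustered protocadherins tested, PCDH11X was higher (0.71, SE 0.19, adjusted p 0.0479) and PCDH7 lower (-0.57, SE 0.14, adjusted p 0.0378) by edgeR.

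The 3 hairpin comparisons in H1 share the SCR libraries. KD1 called 9 members, 6 higher and 3 lower (17.0%, beside 11.1% of all genes, 4.25% higher and 6.83% lower). KD2 called 1, which was higher (1.89%, beside 1.54% of all genes, 0.691% higher and 0.851% lower). KD3 called 6, of which 5 were higher (11.3%, beside 2.98% of all genes, 1.19% higher and 1.79% lower). The one member with KD2 was PCDHGB5, which KD1 and KD3 also called. The log2 fold changes of PCDHB10 were 0.66 with KD1 and 1.06 with KD3, both called, and those of PCDHGC3 were -0.36 with KD1 and -0.61 with KD3, both called. The call of PCDHGC3 with KD1 was the weaker, kept in 4 of 18 alternative fits, against 15 of 18 with KD3. KD1 also called PCDHA9, PCDHB16 and PCDHB8 higher (2.21, 0.77 and 1.26) and PCDHA11 and PCDHGC4 lower (-1.42 and -0.84). It called PCDHGA12 higher as well, from 9 counts in the SCR libraries to 99 in the KD1 libraries, a ratio of 10.8 with an exact 95% interval of 5.44 to 24.2 for counting error. KD3 also called PCDHA3 (0.87), PCDHB6 (1.42) and PCDHGA2 (2.04) higher. Without the second H1 SCR library the calls were 2 with KD1, 0 with KD2 and 0 with KD3. Without the first they were 3, 0 and 2. Leaving out the first or the second KD1 library left 0 or 2 calls with KD1, and leaving out the first or the second KD3 library left 1 or 0 with KD3. Without either KD1 library KD3 called 3, and the call with KD2 was lost without either KD2, either KD3 or either MEL1 KD1 library.

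A direct test between the hairpins called 2 members (3.77%, beside 3.54% of all genes), PCDHA11 and PCDHGB4. PCDHA11 had 11.3 and 13.7 CPM with SCR, 4.32 and 5.06 with KD1, 10.5 and 7.24 with KD2 and 10.6 and 11.2 with KD3. It was lowest with KD1, by a log2 difference of 1.21 (SE 0.21, adjusted p 0.0132) between KD3 and KD1 and of 0.92 (SE 0.21, adjusted p 0.0809) between KD2 and KD1 in the edgeR fit. PCDHGB4 had 37.6 and 28.7 CPM with SCR, 38.1 and 36.9 with KD1, 42.2 and 43.9 with KD2 and 23.5 and 27.2 with KD3. It was lowest with KD3, by a log2 difference of -0.76 (SE 0.16, adjusted p 0.0477) between KD3 and KD2 and of -0.57 (SE 0.16, adjusted p 0.0649) between KD3 and KD1 in the edgeR fit. Over the 3 hairpins the adjusted p was 0.0271 for PCDHA11 and 0.0453 for PCDHGB4 (edgeR). Leaving out either KD1 or either KD3 library left no member called between hairpins, and leaving out either KD2 library or either MEL1 KD1 library left 1. KD1 is also the hairpin with which 4 of the 21 regulators were called, beside 11.1% of all genes tested. CTCF, RAD21 and DNMT3B were lower and TET1 higher, named here after their values were seen.

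Whether the lines responded alike was tested by setting the knockdown effect in MEL1 against that in H1, averaged over KD1 and KD2. It called 2 members (3.77%, beside 0.598% of all genes), both C-type genes and both with a higher effect in MEL1. PCDHGC3 had 40.3 CPM in MEL1 SCR, 47.1 and 49.2 in MEL1 KD1 and 84.8 in MEL1 KD2. It was thus higher with knockdown in MEL1, mostly in the single KD2 library, and lower in H1. The whole PCDHG cluster was highest in that KD2 library, at 270 CPM against 138 to 158 CPM in the other MEL1 libraries. A response of PCDHGC3 cannot be told apart there from a difference of the library. The effects differed by a log2 of 0.97 (adjusted p 0.0234 by edgeR, SE 0.15). PCDHAC2 had 12.4 and 12.3 CPM in H1 SCR and 9.91 to 10.8 CPM in the H1 KD1 and KD2 libraries, but 5.72 CPM in MEL1 SCR, 10.6 and 10.6 in MEL1 KD1 and 13.2 in MEL1 KD2. The difference was 1.30 (SE 0.25, adjusted p 0.0483, edgeR). Both differences rest on the single MEL1 SCR library, the shallowest of the 12, and the test cannot be made without it or without MEL1 KD2. Leaving out the first or second H1 KD1, the second H1 KD2 or the second H1 SCR library left no member called, and leaving out either H1 KD3, the first H1 SCR or either MEL1 KD1 library left 1.

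Over both lines together, with line as a covariate, 0 of 53 members passed the edgeR test, beside 0.213% of all genes (0.0562% higher and 0.157% lower). At an unadjusted p under 0.05 there were 13, all with a positive log2 fold change (24.5%, beside 15.7% of all genes, 8.33% with a positive one), and the median over the members was 0.37, beside 0.05 over all genes. DESeq2 called 2 members, PCDHA3 and PCDHGB5, and a fit of the group means, in which differences between hairpins do not enter the spread, called 6, namely PCDHA3, PCDHAC2, PCDHB10, PCDHB14, PCDHB16 and PCDHGB5, all higher. Without the MEL1 KD2 library edgeR called 1, PCDHGC4, which was lower. PCDHA1, PCDHA3, PCDHA7, PCDHA13, PCDHB5, PCDHB12, PCDHB14 and PCDHGB5 were higher in all 9 knockdown libraries than the SCR mean of their line, which for MEL1 is 1 library. That is 15.1% of the members, beside 5.98% of all genes. Among them PCDHA3 had the smallest adjusted p, 0.113 (log2 fold change 0.63, SE 0.17, edgeR).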

How the data were processed

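Per the labels, total RNA was made into stranded libraries. The authors deposited estimated counts by gene, under Ensembl identifiers. The submitters' processing notes name fastp and kallisto, with no role or version, and build and annotation are not given in the sources used here. Between 14.7% and 20.7% of the values of a library were not whole. Counts were rounded, filtered with filterByExpr (24898 genes), scaled by TMM and tested with edgeR 4.0.16 (R 4.3.3, limma 3.58.1) by robust quasi-likelihood tests with Benjamini-Hochberg adjustment over all genes. The fit over both lines had line as a covariate, and the others used 7 group means. SE was derived from each fold change and its F statistic. Symbols came from a name table (41981 of 65969 identifiers), and gene models from GENCODE release 29. Transcript models with at least 4 exons were used for PCDHA and PCDHG, and uniqueness was counted in 31-nt stretches. Simulated data with 200 genes changed by a log2 of 2 gave 95.0% recovery and 9.09% false calls for the H1 average, on 23744 genes. That false share is above the rate set by the adjusted p threshold. Only genes at a mean of at least 1 CPM were changed, so recovery of smaller changes, or of members below that level, was not tested.

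The members, gene lists, tests and alternatives were chosen with earlier results of these data known. Named are the 3 highest members of each cluster, the C-type genes, called members (the 4 largest rises and falls where over 8), METTL14, and regulators, partners and nonclustered protocadherins called in H1 or over both lines; others were named after their values were seen. Alternatives were DESeq2 1.42.0, other scalings and filters, removal of GC and length trends (splines with 5 and 4 degrees of freedom), other designs, and leaving out each library; KD1 only and KD2 only for the lines, and overlap and detection without MEL1 KD2, were added after seeing the data.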

Additional observations from a re-analysis of the deposited data

Results flagged for a closer look

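In the MEL1 KD2 library, the single library of its group, 6 members and all 3 cluster totals lay far from the other 3 MEL1 libraries for the spread of those 4. The values there were 88.0 CPM for PCDHB5, 33.9 for PCDHB15, 3.31 for PCDHGC5, 10.6 for PCDHA11, 7.69 for PCDHB10 and 2.14 for PCDHA2, each the highest in MEL1. The totals were 105 CPM for PCDHA, 204 for PCDHB and 270.02 for PCDHG, against 60.5 to 64.4, 137.7 to 139.8 and 137.9 to 158 in the other MEL1 libraries. Hairpin and library cannot be told apart. In the H1 KD3 group, PCDHA1 at 1.13 CPM in the first library lay far above the other 5 H1 knockdown libraries. In all 58 sets of values were examined, 29 over the 6 H1 knockdown libraries and 29 over the 4 MEL1 libraries. Of these 10 were far out, 9 of them in MEL1 and all 9 at the same library, MEL1 KD2. For a single set chance gives about 1 in 20. The sets share libraries and the totals include the members, so the count of 10 cannot be set against that rate.

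The effect of knockdown differed between the lines for PCDHGC3 (adjusted p 0.0234, edgeR) and PCDHAC2 (adjusted p 0.0483, edgeR). The H1 hairpins differed for PCDHA11 (adjusted p 0.0271, edgeR) and PCDHGB4 (adjusted p 0.0453, edgeR).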

How the results depend on the processing

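No paired analysis was possible because the labels carry no replicate numbers. Leaving out 1 library at a time gave 0 to 10 called members for the H1 average (9 with all libraries), 0 to 9 for KD1 (9), 0 to 1 for KD2 (1), 0 to 6 for KD3 (6), 0 to 3 between hairpins (2), 0 to 2 between the lines' effects (2), 23 to 26 for MEL1 against H1 (23) and 0 to 1 over both lines (0). A lone SCR library left in this way is assumed to vary like the other groups. With no filter on low counts the calls were 15 for the H1 average, 4 for KD2, 14 for KD3, 5 between hairpins and 6 between the lines' effects. DESeq2 gave 14, 3, 13, 4 and 3 for the same comparisons, and 2 over both lines. With GC and length trends removed they were 15 for the H1 average, 4 for KD2, 10 for KD3, 3 between hairpins and 3 between the lines' effects. Median-of-ratios scaling, upper-quartile scaling and a mean of at least 1 CPM each left 1 between the lines' effects. The fit of group means gave 6 over both lines. KD2 only gave 13 and KD1 only 27 for MEL1 against H1. Members that did not overlap between the lines numbered 14, and 24 without the MEL1 KD2 library. Per transcript length the share of PCDHB5 was 35.8% in H1 and 44.7% in MEL1. For the 33 results on single members, 481 of 612 alternative values kept their side of the threshold, 131 lost it and 0 changed direction. Calls were kept in 3 of 16 alternatives for PCDHAC2 between the lines' effects, and in 20 of 20 for PCDHGB5 in MEL1 against H1. These results were picked because they were called, and the alternatives reuse most of the same libraries. A kept direction is therefore no separate support for them. Why calls were lost was not tested.

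Depth limits members near 3 counts, such as PCDHGB5 in H1 SCR and PCDHA8 in MEL1. Estimated counts divide reads of shared exons, and how far that moves PCDHA and PCDHG shares was not tested.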
